A study of Mus musculus with 12 samples.

Results

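Complex I (NADH:ubiquinone oxidoreductase) is encoded by nuclear genes whose symbols begin with Nduf and by the mitochondrial mt-Nd genes. All rows of the count table whose deposited symbol begins with Nduf were taken, which gave 46 of 15113 genes. Of these, 8 are assembly factors (Ndufaf1 to Ndufaf8), which help to build the complex and are not part of it, and 38 carry the names of subunits. The names Ndufa4 and Ndufa4l2 are among these 38, although the Ndufa4 protein is assigned to complex IV today and Ndufa4l2 is its paralog. Ndufb1 was not analysed here. A processed pseudogene, Ndufs6b, has no symbol in the deposited table and was not taken. Its mean was 11.5 normalized counts with vehicle and 6.36 with BAM15.

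C2C12 mouse myoblasts were differentiated into myotubes in low horse serum and then treated for 16 h with 20 μM BAM15, a mitochondrial protonophore uncoupler, dissolved in DMSO. Control myotubes received the DMSO vehicle. Both groups are the same unmodified cell line, and 6 libraries were sequenced per group. The libraries were prepared with QuantSeq, which counts reads near the 3′ end of a transcript, so longer transcripts do not gain more counts.

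Complex I oxidizes NADH in the matrix, passes the electrons through a chain of iron-sulfur clusters to ubiquinone, and pumps protons across the inner membrane. Its matrix arm consists of the N module, where NADH is oxidized, and the Q module, where ubiquinone is reduced. The membrane arm has a proximal and a distal part, which hold the proton channels. The core subunits carry out the reaction, the supernumerary subunits surround them, and the arms are built separately by assembly factors before they are joined. In muscle the complex feeds electrons from glycolysis, the tricarboxylic acid cycle and fatty acid oxidation into the respiratory chain.

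Read totals on genes were 13983725 to 18751780 in the BAM15 libraries and 15299135 to 18866728 in the vehicle libraries. The BAM15 libraries numbered 4 to 6 stood apart from those numbered 1 to 3 on the second principal component, which held 17% of the variance, and the labels name no batch. Results are therefore also given within numbers 1 to 3 and within numbers 4 to 6. All 12 myotube markers were in the table, and their summed level was 25817 to 29758 CPM (counts scaled to a fixed library total) with BAM15 and 27582 to 30005 with vehicle. Of these 12, 4 fell (33.3%, against 20.3% of all tested genes) and 2 rose (16.7%, against 22%), with a median log2 fold change of −0.16. The sum includes Acta1, which rose from a mean of 127952 to 175768 normalized counts (0.46, adjusted p = 3.96e-05). The summed level of 8 markers of undifferentiated or cycling myoblasts was lower with BAM15, at 145 to 212 CPM against 349 to 405. Of these 8, 5 fell (62.5%, against 20.3% of all tested genes) and 1 rose (12.5%, against 22%). The gene that rose was Myf5, a myoblast factor (1.69, adjusted p = 0.00144). Macrophage markers (3 of 6 in the table) summed to 3.58 to 4.99 CPM against 0.980 to 1.96, and adipocyte markers (2 of 6) to 2.64 to 12.6 CPM against 0.254 to 1.09. Each sum was driven by 1 gene, the only one of its list that was tested. Cd68 rose from a mean of 13.7 to 64.2 normalized counts, and Pparg from 12.7 to 82.3, with 206 in BAM15 replicate 5. The groups overlapped for Csf1r (1.81 to 16.2 with vehicle, 0.971 to 10.8 with BAM15). They also did for Lyz2 (0 to 6.33 and 0 to 3.24) and Fabp4 (0 to 1.81 and 0 to 2.91). The defining markers Adgre1, Ptprc, Adipoq and Plin1 were not analysed here. The part of these cell types in the results was not tested. Nothing in the labels says that the libraries came from separate cultures, so p-values measure the spread between these libraries.

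A gene was called when its adjusted p-value was below 0.01 in edgeR's quasi-likelihood test, adjusted over all 12730 tested genes. Values per library are normalized counts, which are counts scaled to a common library size. All 46 Nduf genes passed the filter on low counts. Of these, 11 fell with BAM15 (23.9%), against 20.3% of all tested genes, so the share of falling genes was near the background. Only 2 rose (4.35%), Ndufaf4 and Ndufa4l2, against 22% of all tested genes. The estimate was negative for 36 genes and positive for 10. In 12 genes the groups did not overlap, with BAM15 below vehicle in 10 (17% of all tested genes) and above it in 2 (17.1%). The median log2 fold change was −0.14, against 0.02 over all tested genes. In single libraries the median difference from the vehicle mean was −0.18 to −0.08 (log2) with BAM15 and −0.07 to 0.07 with vehicle. None of the 46 passed the study's 3 thresholds together (adjusted p below 0.01, base mean above 50 and a change of more than 2-fold), which 7.28% of all tested genes did.

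Reads on the Nduf genes made up 0.641% ± 0.0259 (SD, n = 6) of a BAM15 library and 0.727% ± 0.0351 of a vehicle library. The BAM15 libraries ranged from 0.610% to 0.677% and the vehicle libraries from 0.686% to 0.778%, so the groups did not overlap. These are shares of the raw counts. In normalized counts the sums had means of 110801 with BAM15 and 120359 with vehicle. They ranged from 105337 to 114665 and from 114769 to 126497, so on this scale the groups nearly touched. In these bulk libraries, fewer cells of a type and less RNA per cell cannot be told apart, and all levels are relative to the whole library. Within numbers 1 to 3, 17 of the 46 Nduf genes fell and 3 of the 46 rose, against 22.2% and 22.2% of all genes tested there. Within numbers 4 to 6, 9 of the 46 fell and 3 of the 46 rose, against 16.7% and 16.5%. All 13 called genes had the same sign within both sets of numbers, and 5 of the 11 that fell were called in both. The 13 were called on these same libraries, so the shared sign is not a separate test.

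**Figure D1:**
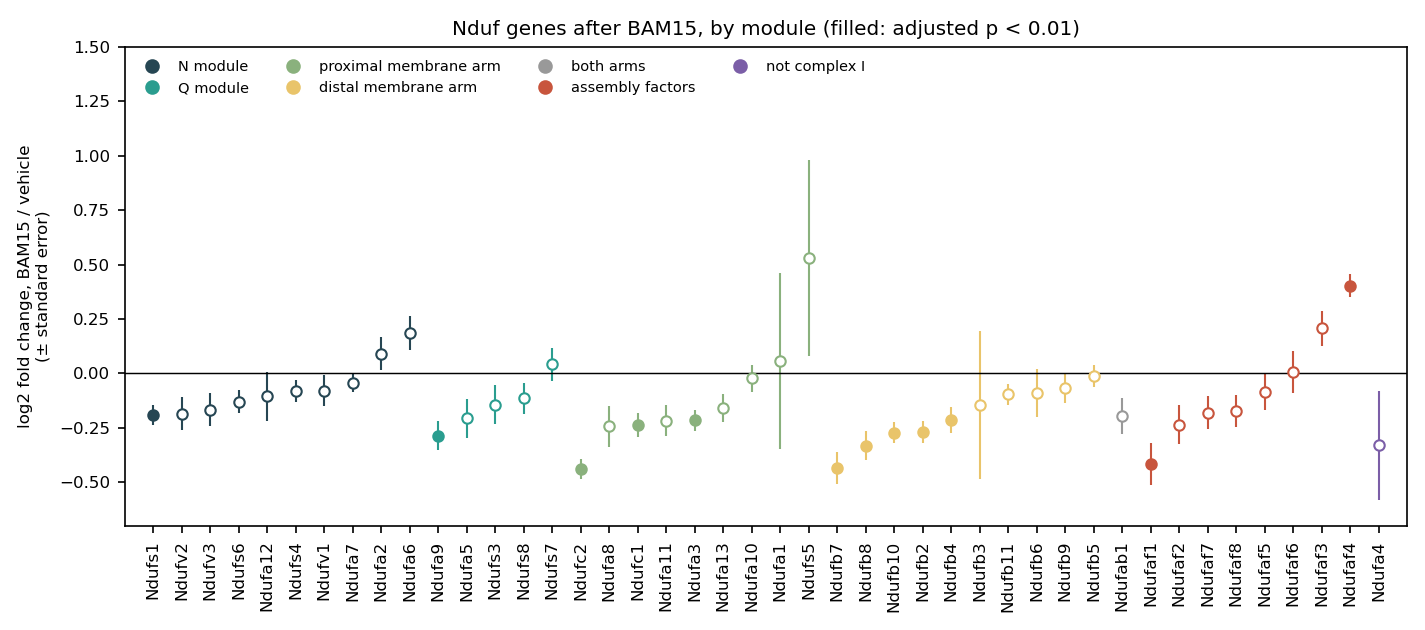
Log2 fold change of BAM15 over vehicle (y axis) for 44 of the 46 Nduf genes (x axis), coloured by module, with bars for the standard error and filled points for an adjusted p-value below 0.01. Filled points below 0 lie mostly in the membrane arm, Ndufaf4 is the filled point above 0 at 0.40, and Ndufa1, Ndufs5 and Ndufb3 have the widest bars. Among the genes not drawn is Ndufa4l2, whose vehicle libraries held at most 2 counts.

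Stretches of 3 promoters are shown because they belong to the subunit gene with the largest fall and to the assembly factors that fell and rose. They are RefSeq sequences on GRCm38.p6, read 5′ to 3′ along the gene's strand, from 120 bases before the RefSeq start of the gene to 30 after it. The RefSeq start of Ndufaf1 differs slightly from that of the GENCODE annotation, which gives the gene positions in the text. Capitals mark matches, on either strand, to the letters CCGGAAG (an ETS or GABPA element) or GCATGCGC (an NRF1 element).
Ndufc2, chr7:97399883-97400032, plus strand: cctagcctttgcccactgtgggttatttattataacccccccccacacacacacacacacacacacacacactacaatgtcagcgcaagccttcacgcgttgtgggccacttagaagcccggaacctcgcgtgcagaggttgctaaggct
Ndufaf1, chr2:119662805-119662954, minus strand: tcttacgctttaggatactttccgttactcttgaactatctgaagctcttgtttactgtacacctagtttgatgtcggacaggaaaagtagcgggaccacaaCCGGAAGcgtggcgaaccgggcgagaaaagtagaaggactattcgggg
Ndufaf4, chr4:24897963-24898112, plus strand: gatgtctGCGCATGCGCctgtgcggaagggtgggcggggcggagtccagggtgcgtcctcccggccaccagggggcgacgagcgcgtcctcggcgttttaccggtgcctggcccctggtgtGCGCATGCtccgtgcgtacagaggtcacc

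RefSeq promoters (250 bases before to 50 after the start) were matched for 40 of the 46 members and gave 42 promoters. The rising Ndufaf4 held the NRF1 letters 3 times, at bases 8 to 15, 10 to 17 and 122 to 129 of the stretch shown, and the first and second of these overlap. The ETS letters stood at bases 103 to 109 in Ndufaf1. The stretch of Ndufc2 held neither. Searched on both strands, the NRF1 letters were in 5 of 42 member promoters (11.9%) and 2.71% of all 32851 promoters, and the ETS letters in 6 (14.3%) and 8.86%. The YY1 letters ATGGCGG were in 11 (26.2%) and 4.05%. Of these 11 matches, in 10 members, 10 read along the gene's strand and 6 lay 14 to 39 bases after the start. The YY1 letters begin with ATG, and whether a match is also the coding start was not tested. The letters AAGGTCA, an element of the estrogen-related receptors, were in 3 (7.14%) and 4.72%, the HIF letters ACGTG in 8 (19%) and 19.6%, and the ATF4 composite letters TGATGNAA in 0 and 3.97%. In the 10 matched promoters of genes that fell, the NRF1 letters were in 0, the ETS letters in 2, the YY1 letters in 1, the letters of the estrogen-related receptors in 2, the HIF letters in 2 and the ATF4 letters in 0. These matches are a description of letters and not of bound sites.

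The 7 nuclear core subunits bear the flavin, the iron-sulfur clusters and the ubiquinone site. Only Ndufs1 fell among them (14.3%, against 20.3% of all tested genes), and none rose (against 22%). Ndufs1 encodes the iron-sulfur subunit of the N module (GRCm38 chr1:63143596-63176833). It had 1949 normalized counts in the lowest vehicle library, 2065 at the median and 2109 in the highest, against 1692, 1776 and 1873 with BAM15. The groups did not overlap, and the log2 fold change was −0.19 ± 0.05 (SE; adjusted p = 0.00288). Within numbers 4 to 6 it was −0.16 and not called (adjusted p = 0.13). Ndufv1, which binds the flavin that accepts electrons from NADH, had 3694 to 4359 counts with vehicle (median 4044) and 3325 to 4367 with BAM15 (median 3882). Its groups overlapped, with a log2 fold change of −0.08 ± 0.07 (adjusted p = 0.372). Ndufv2, another iron-sulfur subunit of the N module, had 1978 to 2206 counts with vehicle (median 2140) and 1563 to 2240 with BAM15 (median 1807). It was not called (−0.18 ± 0.08, adjusted p = 0.0527), but it was called without BAM15 replicate 5 (−0.24, adjusted p = 0.00493) and within numbers 1 to 3 (−0.33, adjusted p = 0.00015).

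In the Q module, the core subunits were not called. Ndufs7, which carries the last iron-sulfur cluster before ubiquinone, had 1938 to 2266 counts with vehicle (median 2080) and 1818 to 2375 with BAM15 (median 2167; 0.04 ± 0.08, adjusted p = 0.666). Ndufs8, which carries iron-sulfur clusters, had 2005 to 2430 counts with vehicle (median 2171) and 1791 to 2261 with BAM15 (median 2061; −0.11 ± 0.07, adjusted p = 0.195). The groups of both genes overlapped. Ndufs3, a structural part of the module, had 433.0 to 511 counts with vehicle (median 492) and 381 to 549 with BAM15 (median 404). Its log2 fold change was −0.14 ± 0.09 (adjusted p = 0.204), with −0.33 within numbers 1 to 3 (adjusted p = 0.00237) and 0.02 within numbers 4 to 6. The Ndufs3 value is uncertain, since Gm12251, another annotated gene, shares 64.7% of the windows of 50 bases at the 3′ end of its transcript (taken as the final 400 bases).

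Over the whole matrix arm, 2 of 16 genes fell (12.5%, against 20.3% of all tested genes), none rose (against 22%), and the median log2 fold change was −0.11. The N module gave 1 of 10 (Ndufs1) and the Q module 1 of 6 (Ndufa9). Ndufa9, a nucleotide-binding subunit at the joint of both arms (chr6:126821721-126849136), had 1282 to 1451 counts with vehicle (median 1370) and 976 to 1236 with BAM15 (median 1135). All BAM15 libraries lay below all vehicle libraries, and the log2 fold change was −0.29 ± 0.07 (adjusted p = 0.00191). It was −0.18 and not called within numbers 1 to 3 (adjusted p = 0.0305) and −0.41 within numbers 4 to 6. The N module genes Ndufa6 and Ndufa2 had the highest estimates of the arm, 0.19 ± 0.08 (adjusted p = 0.0526) and 0.09 ± 0.07 (adjusted p = 0.315), and neither was called.

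Most of the genes that fell encode the membrane arm. There, 8 of 19 genes fell (42.1%, against 20.3% of all tested genes), none rose (against 22%), 17 estimates were negative, and the median log2 fold change was −0.21. The proximal part gave 3 of 9 and the distal part 5 of 10. The median difference from the vehicle mean was −0.25 to −0.20 (log2) in the 6 BAM15 libraries and −0.08 to 0.07 in the vehicle libraries. For the matrix arm the same medians were −0.20 to −0.0032 and −0.07 to 0.09, so its groups overlapped. The difference between the arms was not tested.

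**Figure D2:**
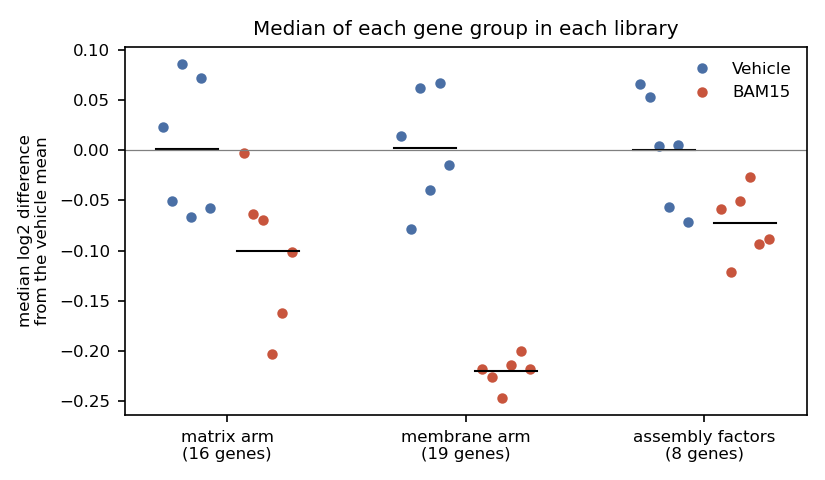
Median log2 difference from the vehicle mean (y axis) in each library (points) for the genes of the matrix arm, the membrane arm and the assembly factors (x axis), with lines for the group means. The BAM15 libraries lie below all vehicle libraries for the membrane arm, at −0.25 to −0.20, and overlap with them for both other gene groups.

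Ndufc2, a small subunit of the proximal membrane arm (chr7:97400003-97407802), had the largest fall. It had 2657 counts in the lowest vehicle library, 2735 at the median and 2838 in the highest, against 1923, 2008 and 2173 with BAM15. Every BAM15 library lay below every vehicle library, and the log2 fold change was −0.44 ± 0.05 (adjusted p = 1.2e-06). It was −0.49 within numbers 1 to 3 and −0.40 within numbers 4 to 6, and was called in both.

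Ndufb7, a subunit of the distal arm that faces the intermembrane space (chr8:83566671-83571626), had 3125 to 3478 counts with vehicle (median 3256) and 2008 to 2715 with BAM15 (median 2489). The groups did not overlap, and the log2 fold change was −0.43 ± 0.07 (adjusted p = 0.000139). It was −0.31 within numbers 1 to 3 and −0.59 within numbers 4 to 6. Ndufb8, a distal subunit often probed on immunoblots as a marker of complex I (chr19:44548572-44555440), had 6349 to 7250 counts with vehicle (median 6768) and 4786 to 6036 with BAM15 (median 5415). Its groups did not overlap either, and the log2 fold change was −0.33 ± 0.07 (adjusted p = 0.000633), with −0.22 within numbers 1 to 3 and −0.48 within numbers 4 to 6. The Ndufb8 value is uncertain, because 24.2% of its 3′ windows are shared with the readthrough gene Gm20538.

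The other 5 membrane arm genes that fell changed by less. Ndufb10, which faces the intermembrane space like Ndufb7, fell by 0.27 on the log2 scale (SE 0.05, adjusted p = 0.000214), from a mean of 2022 ± 92.1 to 1673 ± 61.2 counts (SD, n = 6). Ndufb2, a small distal subunit, fell by 0.27 (adjusted p = 0.000364). Of the last 400 bases of Ndufb2, 146 lie opposite exons of Braf, which rose (0.56, adjusted p = 0.00137), and the strand of the counting is not given in the sources used here. Ndufc1 and Ndufa3, small subunits of the proximal arm, fell by 0.24 and 0.21 (adjusted p = 0.00199 and 0.00163), and neither was called within numbers 4 to 6 (adjusted p = 0.0188 and 0.0435). The groups of these 4 genes did not overlap. Ndufb4, a distal subunit, fell by 0.21 (adjusted p = 0.00769), but its groups overlapped, at 1668 to 2031 counts with vehicle and 1505 to 1697 with BAM15. Its call was lost without any one of BAM15 replicates 2, 4, 5 and 6 or vehicle replicates 1, 3 and 5 (adjusted p up to 0.0207), and within either set of numbers (adjusted p = 0.0207 and 0.03).

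**Figure D3:**
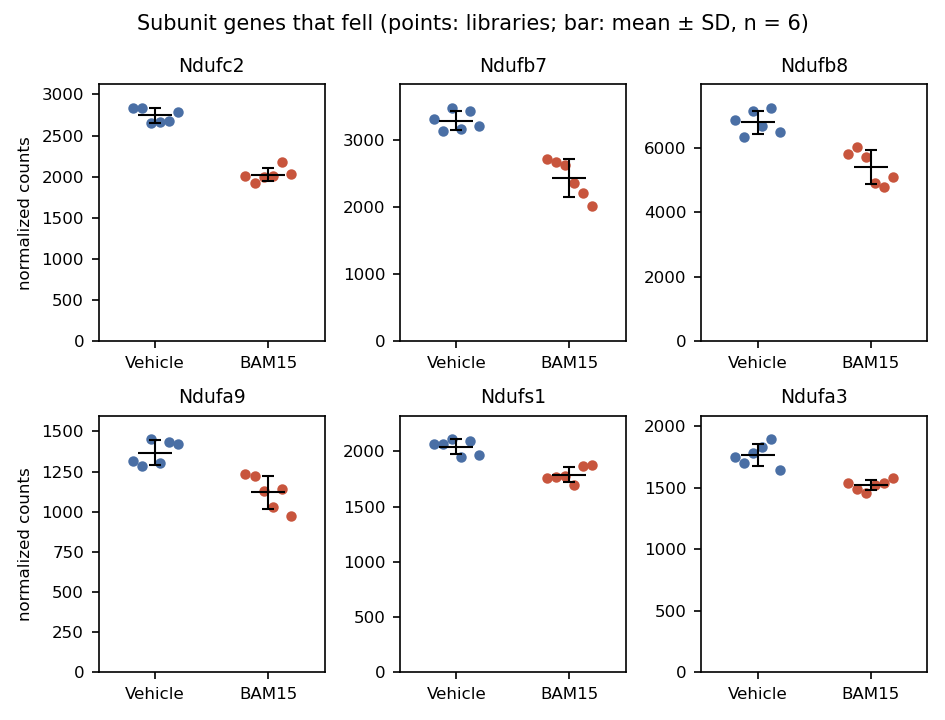
Normalized counts (y axis, from 0) in the 6 vehicle and 6 BAM15 libraries (points), with the mean and SD as bars, for 6 subunit genes that fell. No BAM15 library reaches the lowest vehicle library in any panel, and the largest fold change of the 6 is that of Ndufc2, from a mean of 2745 to 2024 counts.

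Among the membrane arm genes that were not called, Ndufa8 (−0.24 ± 0.09, adjusted p = 0.039), Ndufa11 (−0.22 ± 0.07, adjusted p = 0.0195) and Ndufa13 (−0.16 ± 0.06, adjusted p = 0.0475) came closest. Ndufa8 was called within numbers 1 to 3 (−0.37, adjusted p = 0.000147) and not within numbers 4 to 6 (−0.15, adjusted p = 0.127). Ndufa11 was called within numbers 4 to 6 (−0.34, adjusted p = 0.00333) and not within numbers 1 to 3 (−0.12). Ndufa8 lies on the intermembrane space side, and Ndufa13 is also known as Grim19. The smallest estimates of the arm were those of Ndufb5 (−0.01 ± 0.05) and Ndufa10 (−0.02 ± 0.06). Ndufab1, the mitochondrial acyl carrier protein, which sits in both arms, was not called (−0.19 ± 0.08, adjusted p = 0.0582), but within numbers 1 to 3 it was (−0.32, adjusted p = 0.00032).

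Among the assembly factors, 1 was called in each direction. Ndufaf4 rose, Ndufaf1 fell, and 6 of 8 were not called. Each direction is 12.5% of the 8, against 22% of all tested genes that rose and 20.3% that fell. With only 8 genes, such a count does not set them apart from the background. Ndufaf4, which acts with Ndufaf3 early in the building of the Q module (chr4:24898083-24905001), had 617 to 707 counts with vehicle (median 670.1) and 859 to 898 with BAM15 (median 868). The groups did not overlap, and the BAM15 libraries were close together (CV 1.87%). The log2 fold change was 0.40 ± 0.05 (adjusted p = 9.84e-06), with 0.33 within numbers 1 to 3 and 0.46 within numbers 4 to 6. Its partner Ndufaf3 had 254 to 321 counts with vehicle (median 287) and 301 to 383 with BAM15 (median 326), and was not called (0.21 ± 0.08, adjusted p = 0.0382). Of its last 400 bases, 48 lie opposite exons of Impdh2, which rose (0.23, adjusted p = 0.00198).

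Ndufaf1 belongs to the mitochondrial complex I intermediate assembly (MCIA) complex, which builds the proximal membrane arm (chr2:119655446-119662827). It had 191 to 234 counts with vehicle (median 219) and 123 to 181 with BAM15 (median 164). No BAM15 library reached the lowest vehicle library, and the log2 fold change was −0.42 ± 0.09 (adjusted p = 0.00173). Within numbers 4 to 6 it was −0.49 and not called (adjusted p = 0.0138). The other MCIA genes bear no Nduf symbol. Of them, Tmem126b fell (−0.31 ± 0.06, adjusted p = 0.000466), with 440.2 to 475 counts with vehicle and 351 to 416 with BAM15. Acad9 (−0.42 ± 0.16, adjusted p = 0.0397), Tmem186 (−0.33 ± 0.13, adjusted p = 0.0397) and Ecsit (0.08 ± 0.08, adjusted p = 0.413) were not called, and Coa1 was not analysed here.

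Ndufaf2, a paralog of the subunit Ndufa12 that holds its place during assembly, had 525 to 675 counts with vehicle (median 623) and 425 to 590.2 with BAM15 (median 519; −0.24 ± 0.09, adjusted p = 0.037). Ndufaf5, which modifies Ndufs7, had 165 to 208 counts with vehicle (median 179) and 158 to 193 with BAM15 (median 170.1; −0.09 ± 0.08, adjusted p = 0.41). Ndufaf8, the partner of Ndufaf5, had 1066 to 1284 counts with vehicle (median 1157) and 895 to 1144 with BAM15 (median 1052; −0.17 ± 0.07, adjusted p = 0.0602). All 3 overlapped between the groups. Ndufaf7, a methyltransferase of the early assembly steps, had 250.4 to 283 counts with vehicle (median 261) and 205 to 264 with BAM15 (median 236; −0.18 ± 0.08, adjusted p = 0.0593). Ndufaf6, which is needed early in assembly, had 131 to 185 counts with vehicle (median 159) and 146 to 181 with BAM15 (median 158; 0.01 ± 0.10, adjusted p = 0.957). These also overlapped, and the levels of Ndufaf6 were nearly the same in both groups.

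**Figure D4:**
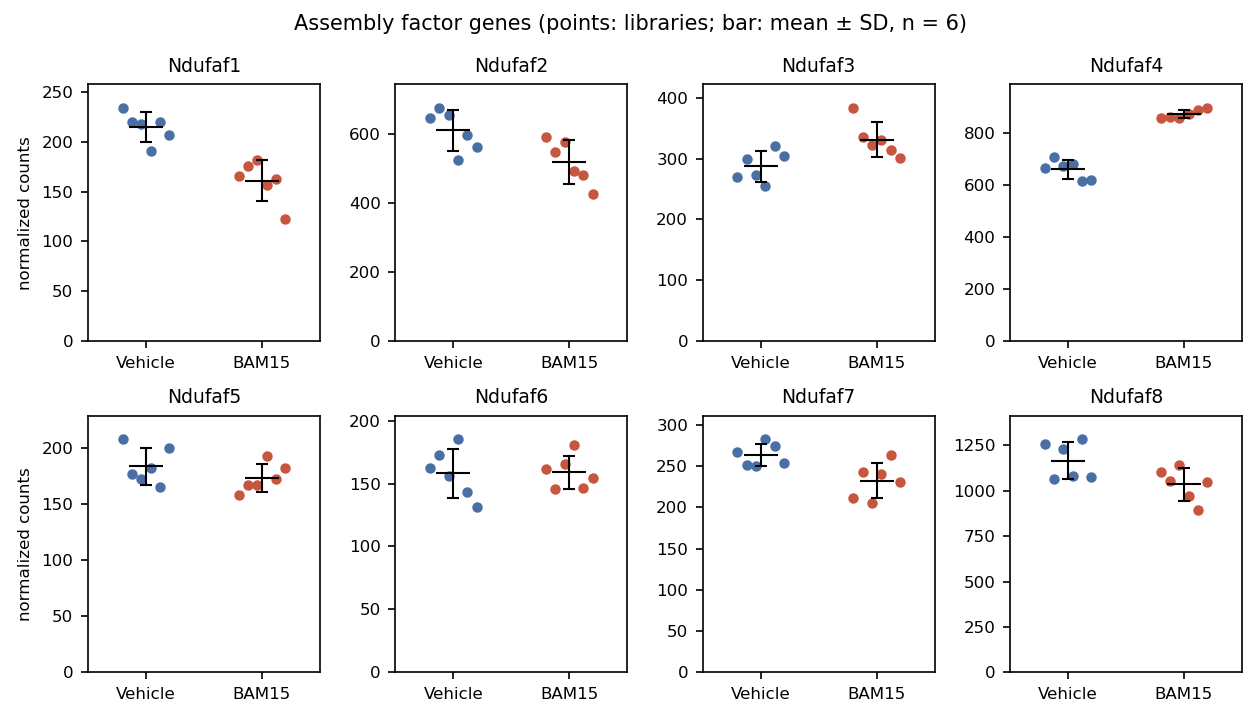
Normalized counts (y axis, from 0) of the 8 Ndufaf genes in the 6 vehicle and 6 BAM15 libraries (points), with the mean and SD as bars. Ndufaf1 lies lower and Ndufaf4 higher in every BAM15 library, at 123 to 181 against 191 to 234 and at 859 to 898 against 617 to 707 counts, and the points of the other 6 overlap.

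Of 11 tested assembly factors without an Nduf symbol, 1 fell (Tmem126b) and 1 rose, and the median log2 fold change was 0.08. Each is 9.09% of the 11, against 20.3% and 22% of all tested genes. The gene that rose was Tmem126a, a factor for the distal membrane arm (0.30 ± 0.08, adjusted p = 0.0071), and its groups overlapped.

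Ndufa4l2, known as a target of hypoxia-inducible factors, had the largest change of all Nduf names (chr10:127514967-127517154). Its vehicle libraries held 2, 2, 0, 0, 2 and 2 counts and its BAM15 libraries 19, 15, 24, 19, 20 and 20. Every vehicle library was under a floor of 3 counts per library, against which the mean of the BAM15 libraries was at least 6.74-fold higher (adjusted p = 5.58e-07). Of its last 400 bases, 32 lie opposite exons of Shmt2, which rose from a mean of 935 ± 45 to 2826 ± 136 normalized counts (SD, n = 6). Without the strand of the counting, reads of both genes cannot be told apart there. Ndufa4 (chr6:11900292-11907497) had 1232 to 1727 counts with vehicle (median 1402) and 593 to 2050 with BAM15 (median 998). It was not called (−0.33 ± 0.25, adjusted p = 0.29), but within numbers 1 to 3 it was (−0.81, adjusted p = 8.65e-05). Within numbers 4 to 6 the log2 fold change was −0.03 (adjusted p = 0.912).

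The spread among the BAM15 libraries was wide for 4 genes, and it followed the library numbers. Ndufa1, a small proximal subunit, had 379, 241, 323, 691, 1545 and 1016 counts in BAM15 libraries 1 to 6 and 476 to 875 with vehicle. Ndufb3, a small distal subunit, had 1197, 795, 1180, 2114, 3798 and 3266 with BAM15 and 1873 to 2706 with vehicle. For both, numbers 1 to 3 lay below all vehicle libraries, and numbers 5 and 6 lay above them. Within numbers 1 to 3 the log2 fold change was −0.91 for Ndufa1 (adjusted p = 0.0025) and −0.94 for Ndufb3 (adjusted p = 0.00207), and within numbers 4 to 6 neither was called (0.52 and 0.27). Ndufs5, on the intermembrane space side, had 24.8 to 146 counts with BAM15, with a CV of 82.4% against 31.8% with vehicle, and 47.0% of its 3′ windows are shared with BC002163. Ndufa4 had its lowest value (593) in number 2 and its highest (2050) in number 5.

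Between BAM15 libraries 4 to 6 and 1 to 3, the log2 difference was 1.82 for Ndufa1 (adjusted p = 0.00867) and 1.57 for Ndufb3 (adjusted p = 0.00668). Ndufa8 was also higher (0.41, adjusted p = 0.00794), and these were the 3 Nduf genes higher in numbers 4 to 6, against 8.77% of all genes tested there. Ndufa12 (−0.49, adjusted p = 0.00481), a subunit of the N module, and Ndufa5 (−0.31, adjusted p = 0.00756), a subunit of the Q module, were lower, against 2.57%. Ndufs5 (1.75, adjusted p = 0.0252) and Ndufa4 (1.08, adjusted p = 0.0153) were not called. In the vehicle libraries no gene was called between these numbers by edgeR, while 5 Nduf genes and 1078 of all genes (8.52%) had an unadjusted p below 0.05. For the genes named here, the vehicle differences had the same signs as with BAM15 and were smaller. They were 0.36 for Ndufa1, 0.33 for Ndufb3, 0.26 for Ndufa4, 0.17 for Ndufa8, 0.02 for Ndufs5, −0.09 for Ndufa12 and −0.08 for Ndufa5. Both sets of vehicle libraries overlapped for Ndufa1, Ndufs5 and Ndufa5, and did not for Ndufb3, Ndufa4, Ndufa8 and Ndufa12. With so few libraries in each set, no call does not mean no difference. The difference of the BAM15 effect itself was past an adjusted p of 0.05 for 1 of 46 Nduf genes, Ndufa12, against 2.66% of all tested genes. None was past 0.01 by edgeR, and 19 of the 46 had an unadjusted p below 0.05, against 26% of all tested genes.

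The 3′ base composition also varied with this difference. Over the 46 genes, the GC content of the last 400 bases and the log2 difference between BAM15 libraries 4 to 6 and 1 to 3 had a Spearman correlation of −0.44 and a Pearson correlation of −0.25. All points share the same libraries, and genes are not independent replicates. With transcript length the Spearman correlation was −0.04. Ndufa1, Ndufb3, Ndufs5 and Ndufa4 had a GC content of 37.5% to 50.2%, inside the range of the other 42 genes (35% to 61.5%, median 47.5%). The part of base composition in the results was not tested.

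**Figure D5:**
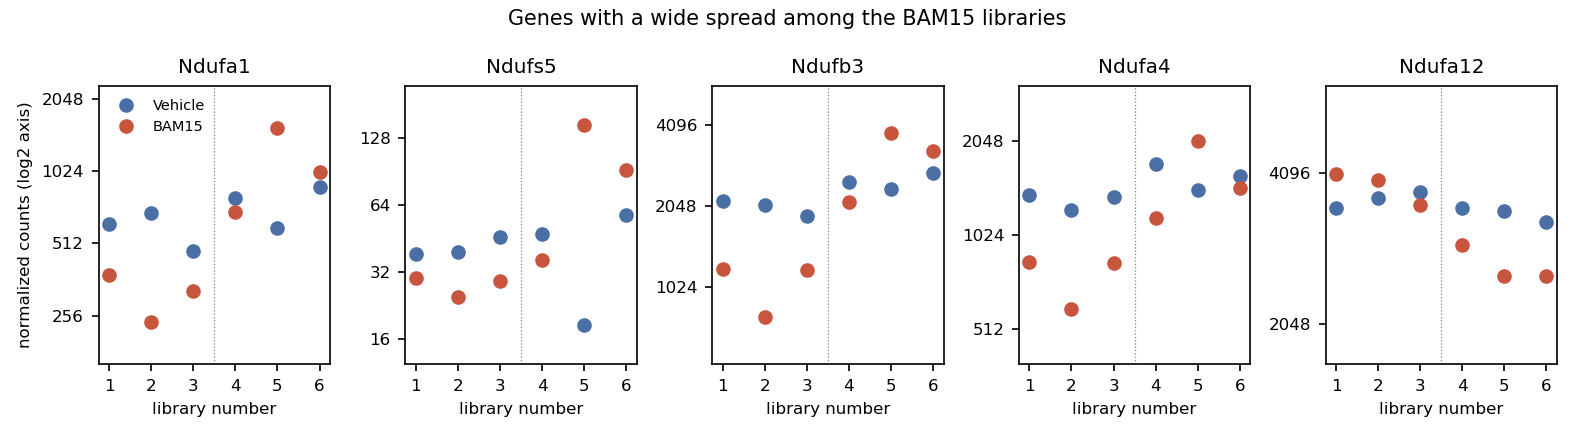
Normalized counts (y axis, log2 scale) against library number (x axis) for 5 Nduf genes, with vehicle and BAM15 libraries as points and a dotted line between numbers 3 and 4. In Ndufa1 and Ndufb3 the BAM15 libraries 1 to 3 lie below the vehicle points and numbers 5 and 6 above them, and in Ndufa12 numbers 4 to 6 are the low ones.

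The mitochondrially encoded subunits form the core of the membrane arm, and their called changes were larger and of both signs. Of 5 tested, mt-Nd2 (−1.13 ± 0.15, adjusted p = 2.79e-05) and mt-Nd1 (−0.96 ± 0.12, adjusted p = 6.1e-06), both of the proximal arm, fell. The distal mt-Nd5 rose (1.01 ± 0.09, adjusted p = 1.22e-07), from a mean of 6606 ± 923 to 13351 ± 852 counts (SD, n = 6). The groups of these 3 genes did not overlap. Of the 5, 40% fell and 20% rose, against 20.3% and 22% of all tested genes. mt-Nd6 (−0.71, adjusted p = 0.0135) and mt-Nd4 (−0.38, adjusted p = 0.0395) were not called, and mt-Nd3 and mt-Nd4l were not analysed here.

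In the nuclear genes of complexes II to V, 11 of 42 fell (26.2%, against 20.3% of all tested genes), 2 rose (4.76%, against 22%), and the median log2 fold change was −0.14, the same as that of the Nduf genes to 2 decimals. The largest falls were in Atp5g3 (−0.71), Atp5k (−0.42) and Uqcr11 (−0.37), and the rises were in Cox6a2 (0.67) and Uqcrq (0.48). Some of these 42 genes also differed between BAM15 libraries 4 to 6 and 1 to 3, so that split was not particular to Nduf genes. Among those higher in 4 to 6 were Cox7c (2.09, adjusted p = 0.00908), Atp5j (1.43, adjusted p = 0.00625) and Uqcrfs1 (1.34, adjusted p = 0.00542). Atp5k was lower there (−0.41, adjusted p = 0.00442). Of 9 regulators of nuclear respiratory genes, the coactivator gene Ppargc1b fell (−0.31, adjusted p = 0.00504, groups overlapping) and the related Pprc1 rose (0.54, adjusted p = 0.00019). Each is 11.1% of the 9, against 20.3% and 22% of all tested genes. Nrf1 (0.18, adjusted p = 0.0587), Gabpa (0.21, adjusted p = 0.0365) Yy1 (−0.01, adjusted p = 0.964) and Esrra (0.33, adjusted p = 0.158), whose factors bind elements of the kinds searched in the promoters, were not called. Within numbers 4 to 6, Esrra was called (0.65, adjusted p = 0.00126).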

How the data were processed

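RNA of C2C12 myotubes was measured in 6 BAM15 and 6 vehicle libraries, grouped by their labels. The authors prepared QuantSeq 3′ libraries, sequenced forward reads and aligned them with BlueBee software, and deposited raw counts, as whole numbers of reads for each Ensembl gene. The processing notes name GRCm38 (mm10). The aligner, annotation and strand of the counting are not given in the sources used here, and the labels and the paper's methods differ in read length and passage. The authors also deposited a normalized signal table, the counts divided by 1 DESeq2 1.22.2 size factor per library, which served for gene symbols. In these tables, 11 columns of other samples were not used.

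Counts were fitted in R 4.3.3 with edgeR 4.0.16 (filterByExpr, TMM, robust quasi-likelihood test, condition as the only term), with Benjamini-Hochberg adjustment over 12730 genes and a threshold of 0.01. Normalized counts are counts divided by the TMM-scaled library size and multiplied by its mean. The difference of the BAM15 effect between numbers 1 to 3 and 4 to 6 was tested as an interaction. Alternatives used DESeq2 1.42.0, limma-voom (limma 3.58.1), other scalings, filters, thresholds and blocks, and left out libraries. No pair of libraries agreed within sampling noise (chi-square per gene of 4.98 or more). Library numbers were not found to pair the samples.

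The members and lists were chosen with earlier results of these data known. Genes named in full are the 8 assembly factors, the 7 nuclear core subunits, the called members with the 5 largest falls and rises whose groups did not overlap, Ndufa4 and Ndufa4l2, of which 1 gene is not reported here. Other lists give at most 3 called genes in each direction. Other genes are named as examples, by a count of 5 or fewer or for their spread, chosen after their values were seen. Sequence shared with other genes was searched in GENCODE M21 transcripts. In simulated data, edgeR's test of BAM15 against vehicle found 0 of 50 genes given a 1.2-fold change and 20 of 50 at 1.5-fold. At 2-fold it found 38 of 50. For the difference between numbers 1 to 3 and 4 to 6, edgeR found 0, 1 and 16 of 50 at the same folds. Each comparison gave 1 false call. At 1.2-fold, DESeq2 found 4 of 50 and limma-voom 0, with 7 and 1 false calls. Genes that were not called may therefore still have small changes.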

Additional observations from a re-analysis of the deposited data

Results flagged for a closer look

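For Ndufa12 the BAM15 effect differed between library numbers, by −0.43 on the log2 scale for numbers 4 to 6 minus numbers 1 to 3 (adjusted p = 0.0444 in edgeR's test of the interaction). The log2 fold change was 0.08 within numbers 1 to 3 (adjusted p = 0.262) and −0.35 within numbers 4 to 6 (adjusted p = 0.00308). The vehicle libraries differed by −0.09 between the same numbers (adjusted p = 0.725). In the interaction test, 2.66% of all tested genes were below an adjusted p of 0.05 and 0 were below 0.01. The cause of the Ndufa12 difference was not tested.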

How the results depend on the processing

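The count of Nduf genes that fell was 11, and it was 17 with scaling by library size only and 17 within numbers 1 to 3. Under all other alternatives with a threshold of 0.01 it was 9 to 15, the highest with a block for numbers 1 to 3 against 4 to 6 and the lowest within numbers 4 to 6. At an adjusted p below 0.05, 15 fell and 3 rose. Past all 3 thresholds of the study, 0 fell and 0 rose. The count of genes that rose was 2, and with a filter of at least 10 counts in every library it was 1, since Ndufa4l2 was then not tested. The median log2 fold change was −0.14, and −0.20 with scaling by library size only (−0.1952), where the median of all genes moved to −0.04. With the replicate block, 12 genes fell, 2 rose and the median was −0.16. The correlations of same-numbered libraries were −0.08 to 0.31, and 2 of 6 BAM15 libraries were closest to their own vehicle number. Numbers 1 to 3 of BAM15 were all closest to vehicle replicate 3, and numbers 4 to 6 all to vehicle replicate 6. Leaving out single libraries gave 10 to 12 falls, 2 to 3 rises and medians of −0.16 to −0.13. Leaving out the genes that share 3′ windows, an alternative chosen after seeing the data, gave 10 falls and 2 rises. Of 623 fits of 26 single genes, 602 kept their side of the threshold, 14 lost and 7 gained a call, and 0 called genes changed sign, while 25 estimates that were called in neither fit did.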
